A study of Mus musculus with 3 samples.

Results

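The nuclei described here are 71 of the 592 neuronal nuclei, and of 603 nuclei in all, that were sorted from the dissected lateral habenula (LHb) of mice. They were chosen from the authors' deposited annotation, as the nuclei classed as neurons, placed in cluster 1 and given the subtype label LHb4, and they are called LHb4 nuclei below. No gene was used to choose them directly, but the clusters and labels rest on the same transcripts that are compared here, so every difference from other nuclei is a description without a test. Single-nucleus RNA sequencing (10x Chromium 3′ chemistry) was run on mothers, virgin females and virgin males, which differ in maternal experience or sex. For each group 3 mice were pooled into 1 library, so the spread between mice cannot be seen. All 3 groups shared the same sort for KASH-GFP, a green fluorescent protein anchored in the nuclear envelope, and the labels name the sorted cells as KASH-GFP+ BNST LHb neurons, where BNST stands for bed nucleus of the stria terminalis. The sources used here do not give the route by which KASH-GFP entered these cells, nor the strain, genotype and age of the mice.

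The habenula is a small epithalamic structure with a medial and a lateral division, both built mainly of glutamatergic neurons. Its neurons are known to depend during development on Pou4f1, a POU-homeodomain transcription factor, and to carry the orphan receptor Gpr151 in part of the lateral division and its border with the medial one. The LHb is known for its part in aversion and for its output to midbrain monoamine neurons, and the serotonin receptor Htr2c has been studied there. The medial habenula is known for substance P, neurokinin B and acetylcholine neurons, and the choroid plexus, an epithelium of the ventricle next to the habenula, for secreting transthyretin (Ttr).

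Cluster 1 held 157 nuclei, of which 71 carried the label LHb4 and 86 the label LHb2, and 71 of all 78 neurons labelled LHb4 lay in cluster 1. Mothers gave 18 LHb4 nuclei, virgin females 25 and virgin males 28. As shares of all neuronal nuclei these are 8.96% [5.39, 13.8], 13.4% [8.84, 19.1] and 13.7% [9.32, 19.2], with exact Clopper-Pearson 95% intervals for counting error, which overlap. The LHb4 nuclei were shallower than the other neuronal nuclei in every library. Their median number of UMIs (unique molecular identifiers, which count transcript molecules) was 8081.5 in mothers, 10822 among virgin females and 5634.5 among virgin males, against 12683, 13410 and 9959.5 in the others. Their median share of mitochondrial UMIs was 0.239%, 0.107% and 0.134%, against 0.0411%, 0.0438% and 0.0706%. The part of depth and mitochondrial share in the differences below was not tested. In total the LHb4 nuclei gave 166360, 298202 and 215101 UMIs, and no cell barcode was shared between libraries. UMIs were summed over nuclei and are given as CPM, counts per 1000000 UMIs of the same set of nuclei, so that 3 UMIs in the LHb4 nuclei equal 18.0, 10.1 and 13.9 CPM in mothers, virgin females and virgin males. Brackets after CPM are exact Poisson 95% intervals, and brackets after folds are exact conditional binomial 95% intervals on summed UMIs. They hold counting error alone, without the variation between nuclei or mice. CPM is not scaled by gene length, so it is compared between sets of nuclei and not between genes.

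The gene that stood furthest above the other neuronal nuclei was D130079A08Rik, a transcript without a known function, and the next was Pou4f1. On the GRCm38 build with GENCODE M21 annotation they lie on the minus strand of chromosome 14 as neighbours, Pou4f1 at chr14:104461676-104467999 and D130079A08Rik at chr14:104288431-104459336, with 2339 bases between the end of Pou4f1 and the start of D130079A08Rik. Whether UMIs of D130079A08Rik come partly from transcripts that run past the end of Pou4f1 was not tested. The 250 bases upstream of each start, from RefSeq on GRCm38.p6, are shown because these adjoining genes led the comparison. They cover chr14:104459337-104459586 and chr14:104468000-104468249, and run 5′ to 3′ on the minus strand. Capitals mark ATTAAT, a short sequence taken as a POU4-type site, searched on both strands.
D130079A08Rik: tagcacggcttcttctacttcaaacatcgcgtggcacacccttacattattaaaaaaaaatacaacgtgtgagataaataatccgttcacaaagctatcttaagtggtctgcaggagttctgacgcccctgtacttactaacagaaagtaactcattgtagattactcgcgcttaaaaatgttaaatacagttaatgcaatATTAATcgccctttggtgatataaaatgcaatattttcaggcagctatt
Pou4f1: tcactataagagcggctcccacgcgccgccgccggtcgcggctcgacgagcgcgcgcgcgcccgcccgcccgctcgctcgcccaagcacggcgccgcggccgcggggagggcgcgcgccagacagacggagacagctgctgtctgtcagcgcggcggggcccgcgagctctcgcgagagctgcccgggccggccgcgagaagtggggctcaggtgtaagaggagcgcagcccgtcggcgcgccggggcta
The upstream stretch of D130079A08Rik held 1 match, 49 bases before its start, and that of Pou4f1 held none. The same letters occur in 1441 of 32851 upstream stretches of this length (4.39%), so the match is a description of letters and not of a bound site.

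D130079A08Rik stood at 409 [317, 518] CPM in mothers, 225 [174, 285] in the virgin females and 381 [303, 473] in the virgin males. The other neuronal nuclei held 3.17, 4.96 and 5.77 CPM, so the LHb4 nuclei were higher in each library, with log2 ratios of 6.93, 5.45 and 5.99. Pooled over libraries the level was 70.6-fold [48.3, 106] that of the other neurons. It was seen in 30 of the 71 nuclei (42.3%, against 4.22% of the other neuronal nuclei). To compare such shares at equal depth, each nucleus was thinned to 3000 UMIs, which left out 10 LHb4 and 14 other neuronal nuclei, and the shares were then 36.1% against 1.38%. Pou4f1 stood at 48.1 [20.8, 94.8] CPM in mothers, 53.7 [30.7, 87.1] in the virgin females and 74.4 [42.5, 121] in the virgin males, against 1.98, 1.24 and 3.67 CPM in the other neurons. It rests on few molecules, 8, 16 and 16 UMIs, and was seen in 33.8% of LHb4 nuclei and 2.11% of the others (21.3% against 1.18% after thinning).

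The remaining genes proposed as markers of these nuclei were Gpr151, Prkcq (protein kinase C theta) and Sox6 (a SoxD transcription factor). Gpr151 gave 9, 11 and 0 UMIs in mothers, virgin females and virgin males, or 54.1, 36.9 and 0 CPM. The other neurons held 7.52, 2.89 and 6.29 CPM, so the LHb4 nuclei were higher in both female libraries and not in virgin males, where 0 UMIs were counted and 3 UMIs would equal 13.9 CPM. Prkcq stood at 234, 218 and 377 CPM against 20.99, 68.6 and 41.9, and Sox6 at 90.2, 215 and 307 CPM against 26.5, 71.1 and 50.8. Both were higher in the LHb4 nuclei of each library, but were also high in the LHb2 nuclei of cluster 1, at 259 and 286 CPM pooled, and low in cluster 4, at 12.9 and 12.9 CPM. Pou4f1 was at 8.38 CPM in the LHb2 nuclei and 7.73 in cluster 4, against 58.9 in the LHb4 nuclei. A UMI of Pou4f1 or Gpr151 was found in 30 LHb4 nuclei, of Prkcq or Sox6 in 39 and of both pairs in 16, while 18 nuclei had no UMI of any of the 4 and 1 had all of them. At these UMI counts a nucleus without a UMI may still express the gene.

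The labelled region was described with marker lists. These lists were chosen with earlier results of these data known, so they are not an independent check of the label. The 6 LHb markers (Pou4f1, Gpr151, Htr2c, Chrm3, Pcdh10 and Gap43) summed to 2026, 2451 and 3770.3 CPM in the LHb4 nuclei of mothers, virgin females and virgin males, above the 1026, 1227 and 1282 CPM of the other neurons. The sum in virgin males was 2918 CPM without the Ttr-rich nuclei described next. Htr2c and Pou4f1 were at least 2-fold higher in each library, while Gap43, the growth-associated protein of axons, stood at 102, 114 and 144 CPM against 192, 217 and 180.3 and was the one of the 6 below the other neurons in all 3 libraries. The 6 thalamic markers (Lef1, Prkcd, Rora, Ntng1, Gbx2 and Plekhg1) summed to 1310.4, 1613 and 1943 CPM, against 6775, 6346 and 7054 CPM. All 5 of them that passed the UMI minimum were at least 2-fold lower in each library. The LHb2 nuclei of cluster 1 also lay low in this sum, at 2313 CPM pooled against 1644 in the LHb4 nuclei. In the 50 LHb4 nuclei that carry the label lhb_1, described below, 4 LHb markers had enough UMIs and none was at least 2-fold higher in each library. LHb4 nuclei were thus lower in each measured thalamic marker, and higher in 2 of 6 habenular ones, than the rest of the sorted neurons, although Rora (881 CPM pooled, 85.9% of nuclei) and Ntng1 (705 CPM, 63.4%) were still present. Slc17a6, the vesicular glutamate transporter of habenula and thalamus, stood at 301, 302 and 246 CPM against 345, 374 and 365. The 5 markers of GABA neurons summed to 25.01 CPM in the LHb4 nuclei and 20.4 in the other neurons, with Slc32a1, Dlx1 and Dlx6os1 at 0 in the LHb4 nuclei. Of their 17 UMIs in the LHb4 nuclei, 11 lay in 1 nucleus of virgin females and 3 in 1 of mothers. The LHb2 nuclei and cluster 4 held more, at 77.3 and 59.2 CPM pooled. Xist was absent from the LHb4 nuclei of virgin males (0 UMIs) and gave 142 and 168 UMIs in mothers and virgin females, while the 4 Y-linked genes gave 97 UMIs in virgin males and 0 and 2 in the others, so the libraries followed their labels.

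Of the 28 LHb4 nuclei of virgin males, 5 stood apart from neurons in their transcripts. They held 36, 96, 391, 90 and 108 UMIs of Ttr, together 721 of the 723 Ttr UMIs of all LHb4 nuclei, and no other LHb4 nucleus had more than 1. In the 521 other neuronal nuclei Ttr gave 14 UMIs, never more than 1 in a nucleus. The 5 nuclei were small libraries of 2188 to 4749 UMIs. They held Enpp2 (autotaxin, made by choroid plexus epithelium) at 11515 CPM, the channel gene Trpm3 at 24181, Htr2c at 12509, Clic6 at 785, Folr1 at 523, Otx2 at 471 and Kl at 419 CPM. The 10 choroid and ependymal markers (Ttr, Folr1, Clic6, Kl, Aqp1, Otx2, Foxj1, Ccdc153, Enpp2 and Igf2) summed to 51554 CPM [48385, 54877], with Aqp1, Foxj1 and Ccdc153 at 0. The same list summed to 31.8 CPM [19.7, 48.6] in the other 66 LHb4 nuclei and to 17.1 CPM [14.1, 20.5] in the other neurons. The 5 pan-neuronal markers, among them Rbfox3, Snap25, Syt1 and Map2, gave 2 UMIs in all in the Ttr-rich nuclei, against 7262 CPM [7058, 7470.5] in the other 66 LHb4 nuclei and 8154 CPM [8087, 8222] in the other neurons. The authors class these 5 nuclei as neurons of the LHb, but their transcripts go against that class. Results are given for all 71 nuclei, and the main counts also without these 5.

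**Figure D1:**
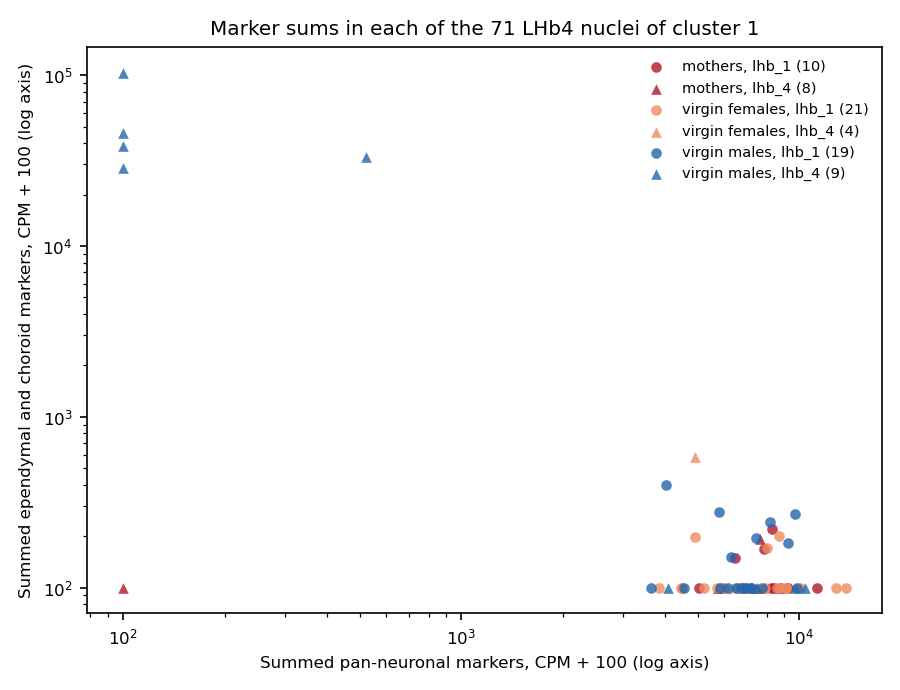
Each point is 1 of the 71 LHb4 nuclei, placed by its summed pan-neuronal markers (x) and its summed ependymal and choroid markers (y), both in CPM with 100 added on log axes; colours give the library and shapes the authors' first-scheme label. The 5 Ttr-rich nuclei of virgin males lie at the upper left, apart from all others, and 1 nucleus of mothers with 1049 UMIs lies at the lower left with no pan-neuronal UMI.

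The other 66 LHb4 nuclei held little of other cell types. Astrocyte markers summed to 51.5 CPM against 299.7 in the other neurons, with Gja1, Slc1a3, Aldh1l1 and Gfap at 0. Microglia markers summed to 203 against 198 CPM and oligodendrocyte markers to 49.96 against 39.8 CPM. The 5 markers of oligodendrocyte precursors summed to 28.8 against 4.09 CPM, all from Vcan, and endothelial markers to 15.1 against 6.27 CPM, with Cldn5 at 0. Pericyte and fibroblast markers were at 0. Markers of cortical and hippocampal neurons summed to 201 against 256 CPM, with Neurod6 and Tbr1 at 0.

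Against all other neuronal nuclei of the same library, 320 of 11467 genes with at least 50 UMIs were at least 2-fold higher in the LHb4 nuclei of each of the 3 libraries (2.79%), and 466 were at least 2-fold lower in each (4.06%). Ratios are log2 of CPM with 0.5 UMI added to each sum, and "higher" and "lower" below mean past 2-fold in each library. The median mean log2 ratio over all genes was 0.12, and scaling by the median ratio brought it to −0.02. Of the 466 lower genes, 74 had no UMI in the LHb4 nuclei and 199 had at most 3. Without the 5 Ttr-rich nuclei 319 of 11449 genes were higher (2.79%) and 491 lower (4.29%), sharing 301 and 449 genes with the first counts.

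After D130079A08Rik and Pou4f1, the higher genes were led by Nwd2, Mme, Vav2, Scube1, Cd63, Ptprq, Plcxd2 and Adam12. Nwd2 (chr5:63649102-63810546) stood at 1154 [997, 1329] CPM in mothers, 651 [562, 749] in the virgin females and 516 [425, 621] in the virgin males, against 23.8, 47.9 and 35.1 CPM in the other neurons. Of its UMIs, 331 lay in the nuclei labelled lhb_4, described below, and 166 in those labelled lhb_1. The part of this makeup in the order of the libraries was not tested. Mothers were not highest within the lhb_1 nuclei. There no nucleus of mothers held more than 4 of its UMIs, against up to 39 in virgin females and 27 in virgin males. Mme (chr3:63241537-63386030), which encodes neprilysin, a membrane peptidase that cleaves neuropeptides, stood at 138 [87.6, 207] CPM in mothers, 198 [151, 255] in the virgin females and 191 [137, 259] in the virgin males, against 9.50, 19.01 and 12.1 CPM. It was seen in 57.7% of LHb4 nuclei and 8.83% of the others (40.98% against 4.54% after thinning), and differed little between the libraries.

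Vav2, an exchange factor for small GTPases, stood at 132, 124 and 65.1 CPM in mothers, virgin females and virgin males against 10.7, 8.26 and 6.29 CPM, or 12.5-fold [8.73, 17.9] pooled. Scube1 (chr15:83604999-83725021), which encodes a secreted and cell-surface EGF-domain protein, stood at 270.5, 288 and 186 CPM against 19.01, 28.5 and 15.7 CPM, or 11.7-fold [9.35, 14.7]. Cd63, a tetraspanin of late endosomes, rested on 8, 11 and 10 UMIs and was 11.2-fold [6.39, 19.9] the level of the other neurons. These genes were higher in all 3 libraries, with the lowest LHb4 value of each in virgin males for Vav2 and Scube1 and in virgin females for Cd63.

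Adam12, a metalloprotease of the disintegrin family, stood at 138 [87.6, 207] CPM in mothers, 194 [148, 251] in the virgin females and 205 [149, 275] in the virgin males, against 9.90, 28.5 and 16.2 CPM. Ptprq, a receptor-type phosphatase, stood at 144, 127 and 79.03 CPM against 2.77, 10.3 and 10.5 CPM, in 20 of the 71 nuclei. Plcxd2 stood at 126, 194 and 158 CPM against 17.8, 23.1 and 19.4 CPM with log2 ratios of 2.84, 3.07 and 3.03, close to each other. A UMI of Adam12 was found in 30 LHb4 nuclei and a UMI of Nwd2 in 44, with both in 20.

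**Figure D2:**
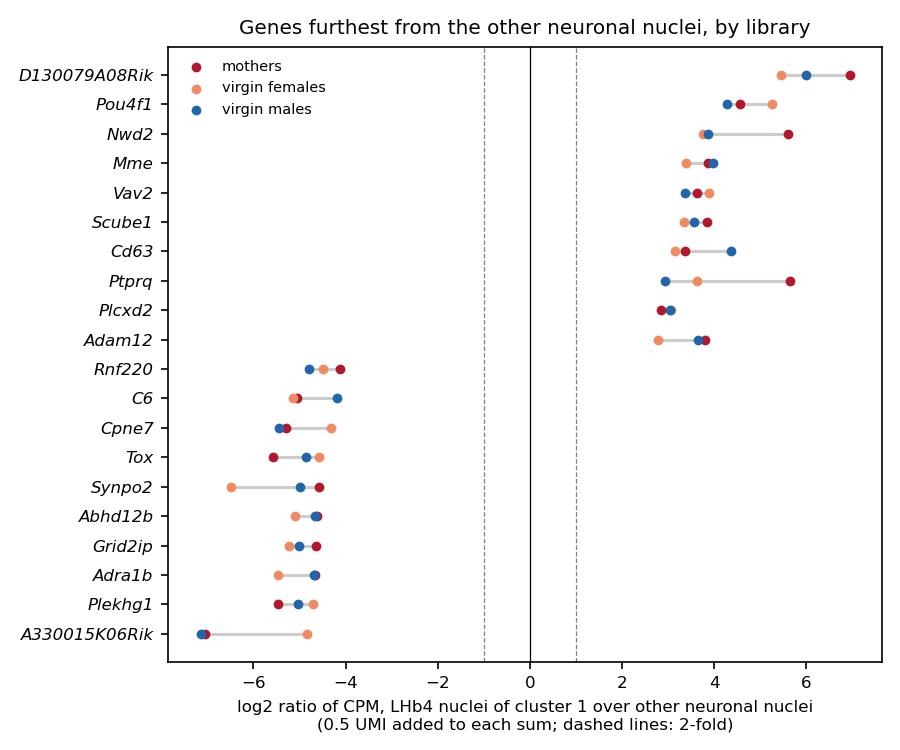
Points give the log2 ratio of CPM in the LHb4 nuclei over the other neuronal nuclei of the same library, coloured by library, for the named genes furthest apart in each direction; dashed lines mark 2-fold. D130079A08Rik and Pou4f1 lie above 4 in every library, and A330015K06Rik below −4; points of genes with 0 UMIs rest on the 0.5 UMI added and are not bounds.

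The lower genes were led by A330015K06Rik, a transcript without a known function, and Plekhg1, an exchange factor for small GTPases used here as a thalamic marker. A330015K06Rik gave 2 UMIs in the LHb4 nuclei against 395, 240.1 and 329 CPM in the other neurons, and its pooled level was 109-fold lower [30.2, 904]. Plekhg1 gave 1, 4 and 2 UMIs, or 6.01, 13.4 and 9.30 CPM, against 398, 393 and 379 CPM, and was 37.95-fold lower [18.4, 94.5]. Both were near absent from the LHb4 nuclei of each library.

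Adra1b, the alpha-1B adrenergic receptor, Grid2ip, a scaffold that binds delta-type glutamate receptors, and Abhd12b had no UMI in any LHb4 nucleus. Adra1b stood at 76.4, 74.4 and 59.2 CPM in the other neurons, so against a floor of 3 UMIs over the pooled LHb4 nuclei it was at least 16.1-fold lower. On the same floor Grid2ip was at least 16-fold lower and Abhd12b at least 14.4-fold lower. Synpo2, an actin-binding protein, gave 3, 1 and 3 UMIs against 503, 449 and 515 CPM and was 47.3-fold lower [22.9, 118]. In the other neurons these 4 genes were seen in 42.8%, 45.1%, 16.7% and 70.8% of nuclei.

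Tox, an HMG-box nuclear factor, stood at 6.01, 23.5 and 18.6 CPM against 427, 599 and 610.1 CPM. Rnf220, a ubiquitin ligase, stood at 66.1 [33.01, 118] CPM in mothers, 53.7 [30.7, 87.1] in the virgin females and 51.1 [25.5, 91.5] in the virgin males, against 1199, 1247 and 1483 CPM, or 23.2-fold lower [16.9, 32.8]. Rnf220 kept a UMI in 39.4% of LHb4 nuclei, against 82.5% of the others. Cpne7, a calcium-dependent phospholipid-binding copine, gave 1, 4 and 1 UMIs and C6, a complement component, gave 0, 0 and 1, against 354, 300.4 and 305 CPM and 99.8, 58.7 and 127 CPM in the other neurons. The LHb4 nuclei were therefore lower in these genes in all 3 libraries, and for C6 the ratio rests on 1 UMI.

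Genes of 18 functional lists were counted under the same rule, beside shares over all genes of 2.79% higher and 4.06% lower. The lists were described by counts and by the median of the mean log2 ratios, to be read beside the median of 0.12 over all genes. Scaling by the median ratio removed 3 calls of list members and added 13, averaging CPM over nuclei removed 19 and added 5, and neither turned a direction. Without the Ttr-rich nuclei the calls of these lists changed in 7 genes: Cacna2d1 was no longer lower, Cacna2d2 was higher, and Prlr, Igf1r, Sulf1, Fras1 and Camk4 were lower.

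**Figure D3:**
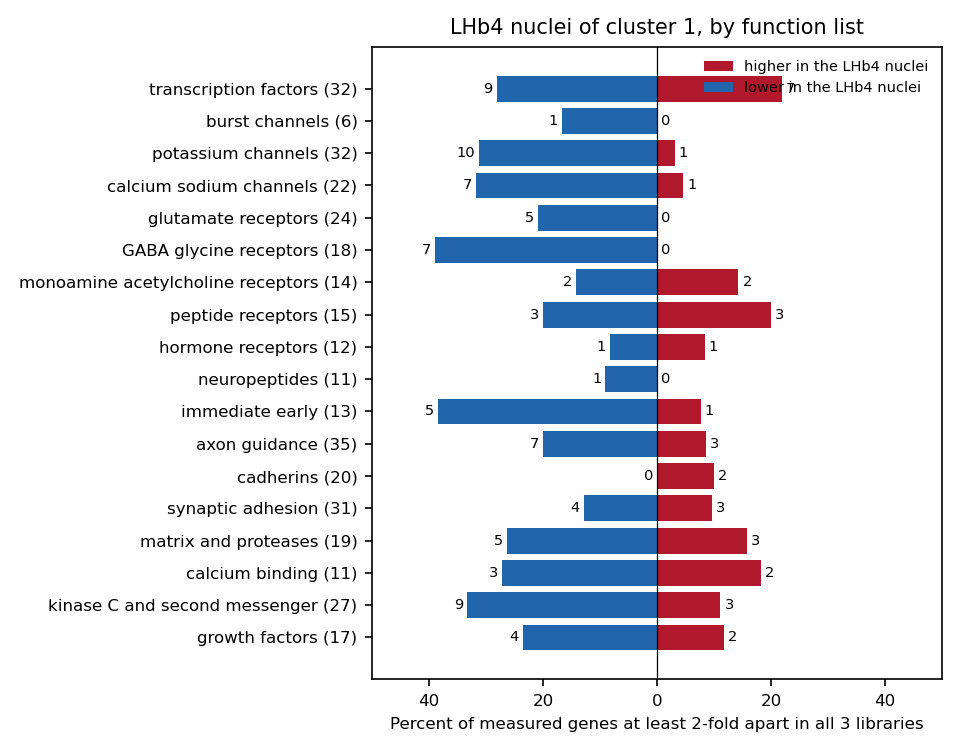
Bars give the percent of measured genes in each functional list that were at least 2-fold higher (right) or lower (left) in the LHb4 nuclei than in the other neuronal nuclei of all 3 libraries, with the numbers of genes at the bar ends and the numbers measured in brackets. Lists of GABA and glycine receptors and of glutamate receptors have lower genes only, while cadherins have higher genes only, with 2 lower as well when scaled by the median ratio.

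Of 32 measured transcription factors, 7 were higher and 9 lower, with a median of −0.31. Among the higher ones were Pou4f1, Nr4a2, Sox6, Ebf1, Nfib and Esrrg. Nr4a2 (Nurr1), an orphan nuclear receptor, stood at 78.1 [41.6, 134] CPM in mothers, 97.2 [65.1, 139.7] in the virgin females and 153 [106, 215] in the virgin males, against 7.92, 27.7 and 17.3 CPM. Ebf1, a helix-loop-helix factor of neuronal differentiation, stood at 523 [419, 645] CPM in mothers, 449 [376, 532] in the virgin females and 493 [403, 596] in the virgin males, against 68.9, 92.6 and 52.9 CPM, and was seen in 70.4% of LHb4 nuclei and 31.7% of the others (59.02% against 14.8% after thinning). Ebf1 was level between the libraries, and the intervals of Nr4a2 overlapped between all 3. Esrrg, an estrogen-related orphan receptor, stood at 625, 744 and 1092 CPM against 213, 268 and 164, with 3402 CPM in the Ttr-rich nuclei, and stayed higher without them (mean log2 ratio 1.81).

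The lower transcription factors were Sox5, Lef1, Rora, Rorb, Foxp2, Lhx2, Tox, Zfhx3 and Bcl11a. Lef1, a Wnt-pathway factor of thalamic neurons, stood at 42.1, 16.8 and 83.7 CPM against 407, 322 and 326 CPM, and Foxp2, a forkhead factor of thalamic and striatal neurons, at 90.2, 6.71 and 55.8 CPM against 391, 464 and 530.5 CPM. Lhx2, a LIM-homeodomain factor, had no UMI in the LHb4 nuclei and 23.8% of the other neurons had one, which makes it at least 6.12-fold lower. Rora was lower by less, at 691, 852 and 1069 CPM against 2375, 2284 and 2489 CPM. The calls of Sox5, Rorb and Bcl11a were lost when CPM was averaged over nuclei.

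Among genes of burst firing, a discharge mode known in LHb neurons that uses T-type calcium channels, 1 of 6 was lower and none higher, with a median of 0.26. Cacna1g, a T-type channel subunit, stood at 54.1 [24.7, 103] CPM in mothers, 33.5 [16.1, 61.7] in the virgin females and 13.9 [2.88, 40.8] in the virgin males, against 206, 192 and 186 CPM. Cacna1i, another T-type subunit, stood at 30.1, 53.7 and 65.1 CPM against 40.4, 40.5 and 42.98 CPM. Cacna1g was thus lower in each library, while Cacna1i stayed within 2-fold.

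Of 32 potassium channel genes 10 were lower and 1 higher, with a median of −0.42. The higher one, Kcnh8 (an Elk-type voltage-gated channel), stood at 836 [702, 987] CPM in mothers, 1079.8 [965, 1204] in the virgin females and 1074 [939.9, 1222] in the virgin males, against 128, 194 and 144 CPM. It was seen in 78.9% of LHb4 nuclei and 33.6% of the others (75.4% against 21.3% after thinning). Against the LHb2 nuclei of cluster 1 alone it did not count as higher. Kcnab1, a beta subunit of Kv1 channels, stood at 18.03 [3.72, 52.7] CPM in mothers, 10.1 [2.07, 29.4] in the virgin females and 18.6 [5.07, 47.6] in the virgin males, against 426, 362 and 315 CPM, or 25.3-fold lower [13.8, 52.9] pooled. Kcnq3, a subunit of the M-current channel, stood at 283, 329 and 251 CPM against 923, 834 and 963 CPM. The other lower genes were Kcna4, Kcnc2, Kcnip4, Kcnj9, Kcnk2, Kcnn3, Kcnq5 and Kcnt2, with mean log2 ratios from −3.42 to −1.40. The call of Kcnq5 was lost when CPM was averaged over nuclei. Of 22 other calcium, sodium and cation channel genes 7 were lower (Cacna1b, Cacna1c, Cacna2d1, Cacna2d3, Cacnb4, Scn3b and the TRPC channel Trpc6) and 1 higher, and without the Ttr-rich nuclei 6 were lower, with Cacna2d1 lost, and 2 higher. The higher gene over all nuclei, Scn4b, a sodium channel beta subunit, rested on 8, 6 and 7 UMIs, and its call and that of Cacnb4 were lost when CPM was averaged over nuclei.

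No glutamate receptor gene was higher and 5 of 24 were lower, with a median of −0.51. Grm7, a presynaptic metabotropic receptor, stood at 463 [365, 578] CPM in mothers, 634 [547, 731] in the virgin females and 814 [697, 943] in the virgin males, against 2562, 2593 and 2936 CPM. Grm4, Grin2c and Grin2d were lower too, with mean log2 ratios of −3.19, −4.04 and −2.82. Grm7 was below the other neurons in each library, with its highest LHb4 value in virgin males.

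Among 18 GABA and glycine receptor genes 7 were lower and none higher, with a median of −1.28. Gabrb1 stood at 108 [64.1, 171] CPM in mothers, 107 [73.4, 151] in the virgin females and 130.2 [86.5, 188] in the virgin males, against 1212, 1118 and 1206 CPM, so its level was about the same in the 3 libraries and 10.3-fold lower [8.21, 12.99] than in the other neurons. Gabra4, a subunit of extrasynaptic receptors in thalamus, gave 7, 0 and 1 UMIs against 345, 284 and 319 CPM. Gabra4 was lower in each library, and its UMIs in mothers came from 4 nuclei. Gabra2, Gabrg1, Gabrd, Gabbr2 and Glra2 were also lower, with mean log2 ratios of −2.73, −2.97, −3.54, −1.52 and −2.42, and the calls of Gabra2 and Gabbr2 were lost when CPM was averaged over nuclei.

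Among receptors for monoamines and acetylcholine, 14 of 34 genes had enough UMIs, and 2 were higher and 2 lower, with a median of 0.58. Htr4, a Gs-coupled serotonin receptor, stood at 198 [137, 279] CPM in mothers, 161 [119, 213] in the virgin females and 130.2 [86.5, 188] in the virgin males, against 17.03, 25.6 and 15.7 CPM, and was seen in 53.5% of LHb4 nuclei and 12.5% of the others (34.4% against 5.92% after thinning). Htr2c, a Gq-coupled serotonin receptor, stood at 799, 1328 and 1989.8 CPM against 282, 424 and 367 CPM. The value in virgin males includes the Ttr-rich nuclei, and without them it was 964 CPM. Htr2c was seen in fewer LHb4 nuclei than other neurons, 56.3% against 67.2% (45.9% against 47.1% after thinning), so its higher level lay in fewer nuclei with more UMIs each. Htr7, another Gs-coupled serotonin receptor, was lower with 4, 10 and 0 UMIs against 120.0, 109 and 109 CPM, as was Adra1b.

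Of 15 peptide receptor genes with enough UMIs, of 34 listed, 3 were higher and 3 lower. Crhr1, the receptor of corticotropin-releasing hormone, stood at 24.04, 40.2 and 37.2 CPM against 7.92, 9.92 and 6.81 CPM, in 18 nuclei. Gpr83 stood at 24.04, 80.5 and 27.9 CPM against 3.17, 12.4 and 3.15 CPM, and Trhde, the enzyme that degrades thyrotropin-releasing hormone, at 90.2, 158 and 121 against 22.2, 70.2 and 44.6 CPM. These 3 were higher in each library, on few UMIs for Crhr1 (4, 12 and 8) and Gpr83 (4, 24 and 6), and the call of Trhde was lost when CPM was averaged over nuclei. The kappa opioid receptor Oprk1, with 2 UMIs, was lower, and so were Galr1 and Vipr2, which had no UMI in the LHb4 nuclei and were at least 4.17-fold lower and at least 6.15-fold lower.

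Among 12 hormone receptor genes, Lepr was higher and Nr3c1 lower. Lepr, the leptin receptor, stood at 42.1 [16.9, 86.7] CPM in mothers, 30.2 [13.8, 57.3] in the virgin females and 41.8 [19.1, 79.4] in the virgin males, against 5.54, 7.44 and 2.62 CPM, and the Ttr-rich nuclei held 5 of its 25 UMIs. Nr3c1, the glucocorticoid receptor, stood at 24.04 [6.55, 61.6] CPM in mothers, 6.71 [0.812, 24.2] in the virgin females and 18.6 [5.07, 47.6] in the virgin males, against 168, 144 and 165 CPM, or 10.8-fold lower [5.83, 22.5] pooled. Prlr, the prolactin receptor, gave 0, 1 and 13 UMIs in mothers, virgin females and virgin males, of which 11 lay in the Ttr-rich nuclei. Without those nuclei Prlr was at 0, 3.35 and 10.2 CPM, against 39.2, 50.8 and 29.4 CPM in the other neurons, and so below them in each library.

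Of 11 neuropeptide genes with enough UMIs, 1 was lower and none higher, although Scg3 counted as higher when CPM was averaged over nuclei. Cck, the cholecystokinin precursor, stood at 12.02, 20.1 and 4.65 CPM against 114, 148 and 139.9 CPM. Of 13 immediate early genes 5 were lower (Fos, Junb, Nr4a1, Bdnf and Per1) and 1 higher (Nr4a2), with a median of −1.46, or −1.15 with the genes at 0 set to their bound, and the calls of Nr4a1 and Per1 were lost when CPM was averaged over nuclei. Fos and Junb had no UMI in the LHb4 nuclei, against 5.94, 20.7 and 17.3 CPM and 9.90, 13.2 and 5.24 CPM in the other neurons, so their absence is measured against levels near the floor of 3 UMIs and pooled they were at least 3.24-fold lower and at least 2.21-fold lower.

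Of 35 axon guidance genes 3 were higher and 7 lower, with a median of −0.45. Slit2, a secreted ligand of Robo receptors, stood at 787 [658, 934] CPM in mothers, 456 [383, 539] in the virgin females and 428 [345, 525] in the virgin males, against 89.5, 114 and 62.4 CPM. Its relative Slit3 gave 16, 0 and 1 UMIs, or 96.2, 0 and 4.65 CPM, against 532, 505 and 429.8 CPM. Slit2 was thus higher and Slit3 lower than in the other neurons of each library. Nrp2, a semaphorin co-receptor of habenular axons, stood at 487, 345 and 335 CPM against 60.2, 69.4 and 47.2 CPM, and Ephb1, an ephrin receptor, at 246, 439 and 372 against 107, 80.99 and 71.3 CPM. Kirrel3, an adhesion protein of synapse formation, stood at 156, 104 and 97.6 CPM against 964, 1129.7 and 931 CPM. Epha8, Efnb2, Ntng1, Unc5b and Unc5c were the other lower genes, of which Epha8 lost its call when CPM was averaged over nuclei.

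Adhesion genes were more evenly placed. Of 20 cadherins Cdh22 and Pcdh11x were higher and none lower, with a median of −0.08, although Cdh13 and Pcdh9 counted as lower when scaled by the median ratio. Pcdh11x stood at 343, 580.1 and 563 CPM against 113, 166 and 122 CPM. Of 31 synaptic adhesion genes 3 were higher (Cntnap4, Cntnap5a and Cbln2) and 4 lower (Cntnap5b, Adgrl3, C1ql3 and Nptxr), of which Cntnap5a and Cntnap5b lost their calls when CPM was averaged over nuclei. Cbln2, a cerebellin that bridges neurexins and delta receptors, stood at 198 [137, 279] CPM in mothers, 191 [145, 248] in the virgin females and 126 [82.7, 183] in the virgin males, against 20.99, 45.9 and 26.2 CPM. Of 19 matrix and protease genes Bcan, Sulf2 and Adam12 were higher and Col12a1, Spon1, Adamts17, Itga8 and Egflam lower, with a median of −1.35. The call of Bcan was lost under both other scalings and that of Spon1 when CPM was averaged over nuclei.

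Of 11 calcium-binding and calcium-sensor genes, Pvalb and Hpcal1 were higher and Calb1, Necab1 and Camk2a lower. Pvalb (parvalbumin) stood at 36.1 [13.2, 78.5] CPM in mothers, 23.5 [9.44, 48.4] in the virgin females and 32.5 [13.1, 67.1] in the virgin males, against 3.96, 7.44 and 3.15 CPM, in 12 of the nuclei. Necab1 gave 0, 0 and 6 UMIs against 365, 407 and 462 CPM and Calb1 (calbindin) 2, 2 and 3 UMIs against 48.3, 51.2 and 68.7 CPM. Both were scarce in the LHb4 nuclei of each library. Of 27 kinase C and second-messenger genes 9 were lower (among them Prkcd, Prkch, Pde4b, Pde7b, Pde10a, Prkg2, Plcb1 and Plcb4) and 3 higher (Prkca, Prkcq and Rgs6), with a median of −0.76. Prkcd, protein kinase C delta, gave 0, 2 and 0 UMIs against 190.1, 127 and 159.9 CPM, while Prkca stood at 90.2, 121 and 144 CPM against 44.7, 55.8 and 49.3 CPM, close to 2-fold, and its call and that of Rgs6 were lost under median scaling. Averaging CPM over nuclei removed the calls of Prkca and Pde4b. Of 17 growth factor genes Nrg1 and Ntrk3 were higher and Fgf10, Fgf13, Bdnf and Igf1 lower, with the call of Ntrk3 lost when CPM was averaged over nuclei. Nrg1 (neuregulin 1, a ligand of ErbB4) stood at 2386 [2157, 2633] CPM in mothers, 3488 [3279, 3706] in the virgin females and 1762 [1589, 1949] in the virgin males, against 623, 1113 and 742 CPM, and its pooled level of 2672 CPM was below the 2989 CPM of the LHb2 nuclei.

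Fewer genes separated the LHb4 nuclei from the LHb2 nuclei of cluster 1. Of 6264 genes with at least 50 UMIs in the 2 sets, 22 were higher in the LHb4 nuclei of each library (0.351%) and 53 lower (0.846%). The higher genes were led by D130079A08Rik, Htr2c, Gm44593, Msi2, Trpm3, Ptprq, Scube1 and Plcxd2. Pou4f1 and Gpr151 did not reach the UMI minimum in this comparison or in that with cluster 4, so they could not be counted. The pooled level of Pou4f1 given above was higher in the LHb4 nuclei than in both. Msi2, an RNA-binding protein of the Musashi family, stood at 2139.9 [1923, 2374] CPM in mothers, 1771 [1623, 1928] in the virgin females and 1794 [1619.9, 1983] in the virgin males, against 548, 638 and 617 CPM in the LHb2 nuclei and 416, 394 and 389 CPM in all other neurons. D130079A08Rik stood at 12.1 CPM pooled in the LHb2 nuclei, which makes the LHb4 level 26.4-fold [15.1, 50.3] higher, and Scube1 at 75.4 CPM, or 3.34-fold [2.55, 4.40]. Htr2c stood at 184, 344 and 320.5 CPM in the LHb2 nuclei and was higher in the LHb4 nuclei of each library. Trpm3, a cation channel, stood at 2891, 1099.9 and 3198 CPM against 415 pooled in the LHb2 nuclei, and at 1153 CPM in virgin males without the Ttr-rich nuclei, which held 462 of its 688 UMIs there.

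The lower genes against the LHb2 nuclei were led by Ankfn1, Ptprt, A330015K06Rik, Kcnab1, Lncenc1, Syndig1, Megf11 and Kirrel3. Ankfn1 had no UMI in the LHb4 nuclei and 66 in the LHb2 nuclei, and was at least 13.9-fold lower. Ptprt, a receptor-type phosphatase of synapses, gave 0, 12 and 6 UMIs, against 209, 236 and 279.9 CPM in the LHb2 nuclei. Kirrel3 stood at 1585, 884 and 325 CPM in the LHb2 nuclei, so that the LHb4 level was 8.16-fold lower [6.48, 10.4] pooled. Syndig1, a protein of AMPA receptor synapses, gave 1, 7 and 0 UMIs against 126, 87.3 and 68.97 CPM. Of 13 GABA and glycine receptor genes 3 were lower than in the LHb2 nuclei (Gabra4, Gabrb1 and Glra3), and of 29 axon guidance genes 4 (Slit3, Ephb2, Unc5c and Kirrel3), with none higher in either list. Higher were Kcnd3 of 27 potassium channel genes, Ebf1 of 26 transcription factors, Htr2c of 7 monoamine and acetylcholine receptors and Cdh20 of 19 cadherins. None was higher among 5 peptide receptor, 26 synaptic adhesion and 10 matrix and protease genes. Kcnh8, Htr4, Nr4a2, Esrrg, Crhr1, Gpr83, Trhde, Pcdh11x, Cbln2 and Adam12 thus did not count as higher than in the LHb2 nuclei. Against the LHb2 nuclei Gabrb1 differed by −2.15 in mean log2 ratio, at 731, 496 and 381 CPM there. Without the Ttr-rich nuclei 22 genes were higher (0.355%) and 53 lower (0.855%), of which 19 and 45 were shared.

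Cluster 4, with 75 nuclei, also lay low in thalamic markers (1454 CPM pooled, against 1644 in the LHb4 nuclei). Against it 119 of 5523 genes were higher in the LHb4 nuclei (2.15%) and 106 lower (1.92%). B130024G19Rik gave 31, 33 and 16 UMIs in the LHb4 nuclei and 1 in cluster 4, and 5530401A14Rik 16, 28 and 12 and 0. Etv1, an ETS transcription factor, stood at 144, 77.1 and 158 CPM against 3.86 pooled in cluster 4, and Asic2, an acid-sensing channel, at 1845, 1901 and 1966 CPM against 126. Adam12 and Nwd2 were among the leading genes here as well, at 5.15 and 52.8 CPM in cluster 4. Lower than in cluster 4 were Ptprt (26.5 against 799.7 CPM pooled), 9530026P05Rik (8.83 against 402), the GABA receptor subunit Gabrg1 (8.83 against 178), the kinase Hunk (5.89 against 95.3), Cpne7 and Syndig1. LHb4 nuclei thus differed from cluster 4 in more genes than from the LHb2 nuclei in these counts, although the sets differ in size and in the number of genes measured. Without the Ttr-rich nuclei 118 of 5453 genes were higher than in cluster 4 (2.16%) and 111 lower (2.04%).

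The LHb4 nuclei were not uniform. The authors' first subtype scheme gave 50 of them the label lhb_1 and 21 the label lhb_4, out of 402 and 22 neuronal nuclei with these labels. The lhb_4 label was carried by 8 of the 18 LHb4 nuclei of mothers, by 4 of the 25 of virgin females and by 9 of the 28 of virgin males, among them all 5 Ttr-rich nuclei. All 4 nuclei that the authors class as medial habenula (MHb) among neurons were LHb4 nuclei with the lhb_4 label, 2 in mothers and 1 in each virgin group. The comparison of the 2 labels and its genes was chosen after values were seen.

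**Figure D4:**
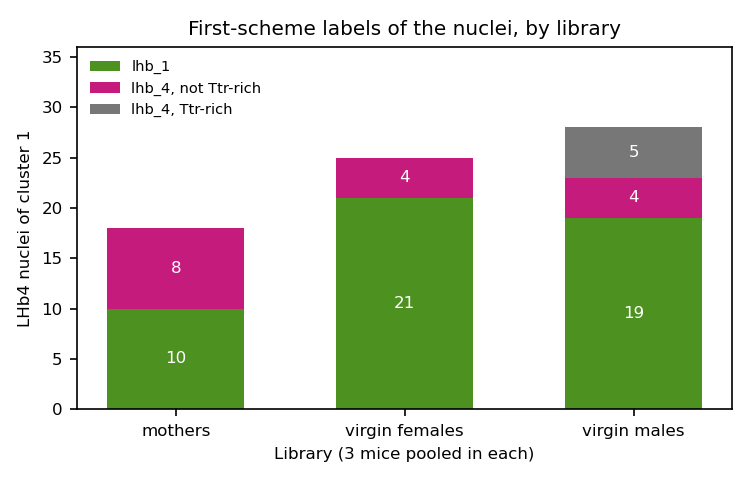
Bars give the number of LHb4 nuclei in each library, divided by the authors' first-scheme label and by whether the nucleus is Ttr-rich. Mothers have 8 lhb_4 nuclei of 18, and the 5 Ttr-rich nuclei all belong to virgin males.

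Between the 16 lhb_4 nuclei that were not Ttr-rich and the 50 lhb_1 nuclei, 57 of 2662 genes were higher (2.14%) and 99 lower (3.72%) in each library. Of the 99 lower genes, 10 had no UMI in the 16 nuclei and 49 had at most 3. With the Ttr-rich nuclei counted among the lhb_4 nuclei, 39 of 2755 genes were higher (1.42%) and 107 lower (3.88%). Against all other neurons the 16 nuclei were higher in 731 of 11148 genes (6.56%) and lower in 231 (2.07%), a comparison in which the 0.5 UMI added weighs more than elsewhere because the set is small. The 16 nuclei gave 110535 UMIs in all, at a median of 5908.5 per nucleus against 8624.5, and their median mitochondrial share was 0.278% against 0.106%. Syt9, a synaptotagmin of vesicle release, stood at 979.7, 355 and 885 CPM in the lhb_4 nuclei of mothers, virgin females and virgin males, and at 8.91, 7.73 and 5.59 CPM in the lhb_1 nuclei. In the lhb_4 nuclei of virgin females 13 of its UMIs lay in 1 nucleus and 1 in another, and in virgin males 13 in 1 and 2 in another. The nuclei with 13 also held 16 and 6 UMIs of the medial habenula markers given below. Cadps2, a priming factor of dense-core vesicles, stood at 795, 659 and 531 CPM against 0, 7.73 and 16.8. The transcription factor Nfib stood at 592, 329 and 177 CPM against 26.7, 7.73 and 11.2. All 3 were higher in the lhb_4 nuclei of each library, for Cadps2 and Nfib in virgin males on 9 against 3 and on 3 against 2 UMIs.

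Several leading genes of the whole set were carried mainly by the lhb_4 nuclei. D130079A08Rik stood there at 1411 CPM pooled, 12.7-fold [9.41, 17.4] its level of 111 in the lhb_1 nuclei. Nwd2 stood at 2994 against 302 CPM, or 9.92-fold [8.21, 12.03]. Scube1, Pde1a, Cpne4, Trpm3 and Tafa1 were higher too, by 4.80-fold [3.52, 6.56], 43.95-fold [18.9, 125], 5.01-fold [4.26, 5.90], 13.4-fold [11.7, 15.4] and 20.2-fold [11.6, 37.4]. Pou4f1 gave 16 UMIs, or 145 CPM, against 43.6 CPM, and Gpr151 127 against 10.9 CPM. The other neurons held 2.19 and 5.54 CPM, so Pou4f1 was above them in the lhb_1 nuclei too, while Gpr151 there rested on 6 UMIs and was at 0 in virgin males.

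The lhb_1 nuclei carried a different set. Adam12 stood at 225 CPM in them and gave 1 UMI in the lhb_4 nuclei. Il1rapl2, an adhesion protein of the interleukin-1 receptor family, stood at 1274, 970.2 and 1502 CPM in the lhb_1 nuclei of mothers, virgin females and virgin males, against 92.4, 101 and 0 in the lhb_4 nuclei. Srrm4, a neuronal splicing factor, stood at 722, 869.7 and 866 CPM against 55.5, 75.98 and 0. Prkcq and Sox6 also lay mainly here, at 302 and 251 CPM against 99.5 and 54.3. Cacna2d1, a calcium channel subunit, had no UMI in the 16 lhb_4 nuclei and was at least 10.99-fold lower there, and Kcnq3 and Grm7 stood at 27.1 and 90.5 CPM against 356 and 782. Tll1, a secreted metalloprotease, stood at 27.1 against 444 CPM.

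Markers of the medial habenula lay in part of the lhb_4 nuclei. The 7 MHb markers (Tac2, Tac1, Chat, Slc5a7, Slc18a3, Chrnb4 and Chrna3) summed to 416 CPM [305, 555] there (46 UMIs, Slc18a3 at 0), 3.64 CPM in the lhb_1 nuclei (2 UMIs) and 2.33 in all other neurons. Tac2, the neurokinin B precursor, gave 17 UMIs in 4 LHb4 nuclei and 0 in the 521 other neuronal nuclei. Tac1, the substance P precursor, gave 12 UMIs in 3 LHb4 nuclei, and Chat, the acetylcholine-synthesising enzyme, 4 UMIs in 2. All 46 UMIs lay in 6 of the 16 nuclei, the 4 classed as MHb and 2 classed as LHb, which held 22 of them. Of the 4 nuclei classed as MHb, 3 held Tac2. The lhb_4 nuclei were lower in thalamic markers than the lhb_1 nuclei, at 642 against 1829 CPM pooled, and their pan-neuronal markers lay within each other's counting interval, at 7174 CPM [6684, 7691] and 7279.7 CPM [7056, 7509].

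**Figure D5:**
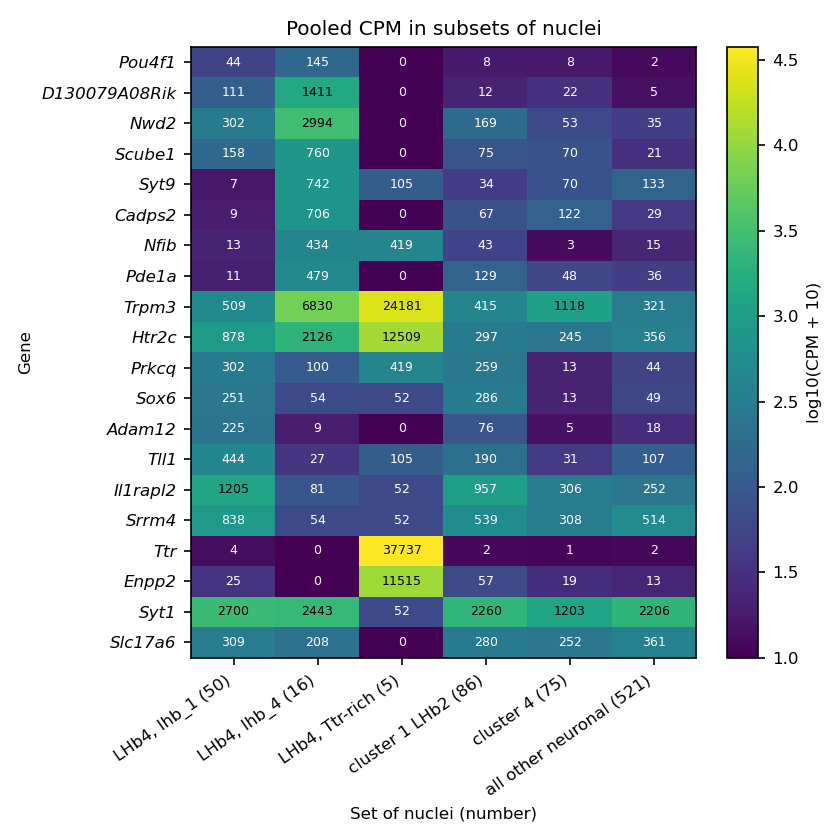
Each cell gives the pooled CPM of a gene (rows) in a set of nuclei (columns, number in brackets), coloured by log10 of CPM plus 10. The columns show Nwd2, Syt9 and Cadps2 in the lhb_4 nuclei, Adam12, Tll1 and Il1rapl2 in the lhb_1 nuclei, and Ttr with Enpp2 in the Ttr-rich nuclei, whose Syt1 and Slc17a6 are near or at 0.

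With the 50 lhb_1 nuclei alone, the LHb4 profile against other neurons changed in part. Then 327 of 11389 genes were higher (2.87%) and 495 lower (4.35%), sharing 245 and 372 genes with the counts over all 71. Against the LHb2 nuclei 15 of 5926 genes were higher (0.253%) and 58 lower (0.979%), of which 9 of the 22 and 37 of the 53 genes were shared. Within the lhb_1 nuclei, at least 3 UMIs of Htr2c were found in 19 nuclei and at least 3 UMIs of Prkcq and Adam12 together in 24, with 5 nuclei in both sets and 12 in neither. These thresholds were chosen after values were seen, and depth differs between nuclei, so the split is a description.

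Between libraries the LHb4 nuclei were compared without a test, each library being 1 pool of 3 mice. A gene was counted where it had at least 20 UMIs in the pair and was at least 2-fold apart with and without the richest nucleus. Mothers were higher than virgin females in 172 of 4691 genes (3.67%) and lower in 202 (4.31%). Virgin males were higher than virgin females in 201 of 5077 genes (3.96%) and lower in 221 (4.35%), and without the Ttr-rich nuclei in 125 (2.58%) and 199 (4.1%) of 4854. Mothers were higher than virgin males in 146 of 3964 genes (3.68%) and lower in 165 (4.16%), and without the Ttr-rich nuclei in 161 (4.3%) and 128 (3.42%) of 3747. In the lhb_1 nuclei alone, mothers were higher than virgin females in 103 of 3824 genes (2.69%) and lower in 203 (5.31%), virgin males were higher than virgin females in 108 of 4379 (2.47%) and lower in 207 (4.73%), and mothers were higher than virgin males in 101 of 2997 (3.37%) and lower in 130 (4.34%). These shares are what 1 library against 1 gave, and hold differences of mice, dissection and the makeup of labels that cannot be told apart from the groups.

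The genes furthest above virgin females in mothers were Zic4, Prkd1, Tafa1 and Syt9. Zic4, a zinc finger factor, stood at 108, 6.71 and 18.6 CPM in mothers, virgin females and virgin males, and mothers were 16.1-fold [3.86, 143] above virgin females in the LHb4 nuclei, while the other neurons held 68.9, 52.5 and 66.04 CPM. LHb4 nuclei were thus above the other neurons in Zic4 in mothers and below them in both virgin groups, on 18, 2 and 4 UMIs. Tafa1 stood at 295, 43.6 and 92.98 CPM and Syt9 at 325, 53.7 and 83.7, and both lay mainly in the lhb_4 nuclei, of which mothers had 8 and virgin females 4. Prkd1, protein kinase D1, stood at 216, 30.2 and 55.8 CPM, with 344 CPM in lhb_4 and 32.7 in lhb_1 nuclei. Ddb2, a DNA damage-binding protein at rank 6, was also higher within the lhb_1 nuclei alone, at 187 CPM in mothers against 27.1 in virgin females, or 6.91-fold [2.83, 19.3]. So was a predicted gene ranked above it, by 9.68-fold [3.55, 32.9]. The other neurons held Ddb2 at 44.4, 45.5 and 58.7 CPM, near level between the groups.

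Lower in mothers than in virgin females were Ppp1r1c, Adarb2, Secisbp2 and Popdc3. Ppp1r1c, a regulator of protein phosphatase 1, gave 0, 22 and 9 UMIs, so mothers were at least 4.09-fold lower than virgin females on the floor of 3 UMIs in their library. The other neurons differed in the same direction, at 1.98 CPM (5 UMIs) in mothers and 9.50 CPM (23 UMIs) in virgin females, so the difference was not particular to the LHb4 nuclei. Adarb2, an RNA-binding protein of the adenosine deaminase family, stood at 18.03 [3.72, 52.7] CPM in mothers, 241 [189, 304] in the virgin females and 9.30 [1.13, 33.6] in the virgin males. It was low in mothers and virgin males and higher in virgin females, whose 72 UMIs came from 9 nuclei. In the other neurons Adarb2 stood at 951, 754 and 891 CPM, without that order. Within the lhb_1 nuclei Adarb2 stood at 8.91, 232 and 11.2 CPM. Secisbp2, a selenoprotein synthesis factor, gave 1, 25 and 11 UMIs, in 1, 15 and 8 nuclei.

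Virgin males stood above virgin females first in genes of the Ttr-rich nuclei, Ttr, Enpp2 and Gmnc, and in the Y-linked Uty and Eif2s3y. All 36 UMIs of Gmnc, a regulator of multiciliated cells, lay in the 5 Ttr-rich nuclei. Lower in virgin males were Xist, Adarb2, Gprin3 and Mrpl9. Gprin3, a regulator of G protein signalling, stood at 72.1, 80.5 and 4.65 CPM, with 1 UMI in virgin males. Tsix, antisense to Xist, was also higher in both female libraries, and its UMIs cannot be told apart from those of Xist, since the sources used here do not say whether the counting used strand. Between mothers and virgin males, Brinp3 stood at 775, 245 and 102 CPM in mothers, virgin females and virgin males and was 7.58-fold [4.80, 12.5] higher in mothers, and Ror2, a Wnt5a receptor, at 204, 127 and 27.9 CPM, or 7.33-fold [3.04, 21.4]. Brinp3 too was richer in lhb_4 nuclei (1176 against 171 CPM), the label more frequent in mothers, while Ror2 was not (90.5 against 124 CPM).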

How the data were processed

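Nuclei from 3 libraries were analysed, 1 each for the mothers, virgin females and virgin males, each from 3 pooled mice per the labels. The authors deposited raw UMI counts per gene and nucleus and a table with each nucleus's group, total counts, percent of mitochondrial UMIs, cluster and subtype labels. Per the submitters' processing notes Cell Ranger 5.0.1 and the GRCm38/mm10 build were used. The sources used here do not state intron counting, filters on nuclei or treatment of doublets, and no doublet caller was run. Nuclei of the 2 tables were matched by their pair of total UMIs and number of genes, and the recomputed mitochondrial percent differed from the deposited one by 0 at most.

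Counts were summed over the nuclei of a set in each library and expressed as CPM. Genes with at least 50 UMIs were compared within each library, with 0.5 UMI added, and counted when at least 2-fold apart in the same direction in all 3 libraries. Between libraries the minimum was 20 UMIs, and the 2-fold had to hold with and without the richest nucleus of each library. No test was run, since each group is 1 library and the nuclei were clustered on these genes. Genes named were the proposed and cell type markers, the 12 furthest apart in each direction against other neurons, 8 against LHb2, 6 against cluster 4 and 5 per pair of libraries (seen in at least 5 nuclei of the higher library), and the list members past 2-fold with up to 4 others per list known in habenular neurons. Ddb2 and Popdc3, at rank 6 between mothers and virgin females, were named as well. Predicted genes were named only among the first 3 ranks. The nuclei and lists were chosen with earlier results of these data known. Only the comparison with all other neurons was tried on simulated counts. These were Poisson draws with known folds and without added variation between nuclei, so they do not cover the other steps. Python 3.11.15, numpy 2.4.6, pandas 2.3.3, scipy 1.17.1 and matplotlib 3.10.9 were used, with GENCODE M21 gene positions.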

Additional observations from a re-analysis of the deposited data

Results flagged for a closer look

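In 3 genes the LHb4 nuclei stood above the other neurons of 1 library by at least 2-fold and below those of another by at least 2-fold, and none of these differences was tested. Gpr151 had a log2 ratio of 3.64 among virgin females and of −1.50 among virgin males, where it gave 0 UMIs, so that the second value rests on the 0.5 UMI added. Cx3cr1, a microglial receptor gene, had a log2 ratio of 1.86 in virgin males and of −1.09 in mothers, where 1 UMI was counted. Of its 14 UMIs in the LHb4 nuclei of virgin males 10 lay in the Ttr-rich nuclei, and without them it stood at 20.4 CPM against 18.3 in the other neurons. Nrp1, a semaphorin co-receptor, had a log2 ratio of 1.56 in virgin males and of −1.15 in mothers, on 15 and 4 UMIs, and the Ttr-rich nuclei held 1 of the 15.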

How the results depend on the processing

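No paired analysis was possible because each group is 1 library; sets of nuclei were compared within each library. Counts against other neurons went from 320 higher and 466 lower to 112 and 316 with a minimum of 200 UMIs, 5302 and 482 with no minimum, 1041 higher and 199 lower with 3 UMIs added, and 104 and 215 after thinning to 3000 UMIs. With no minimum or 3 UMIs added, the added UMIs weigh more in the smaller set, which by construction places scarce genes higher there. Against the LHb2 nuclei, 22 higher and 53 lower became 10 and 22 with a minimum of 200 UMIs, 143 and 162 with no minimum, and 11 and 20 after thinning, with 28 lower with 3 UMIs added. Against cluster 4, 119 and 106 became 46 and 39, 391 and 330, and 40 and 45 under the same minimum, no minimum and thinning. Leaving out 1 library, so that 2 had to pass, gave 489 to 602 higher and 646 to 674 lower against other neurons, 42 to 78 higher and 92 to 102 lower against LHb2, and 169 to 199 higher and 161 to 166 lower against cluster 4. Thinning leaves fewer UMIs, and so fewer genes tested.

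Between libraries, mothers above virgin females went from 172 genes to 51 after thinning, 26 with a minimum of 50 UMIs and 103 in lhb_1 nuclei alone, a setting chosen after seeing the data, and mothers below them from 202 to 69 and 36 under the first of these. Virgin males above virgin females went from 201 to 125 without the Ttr-rich nuclei, 73 after thinning, 25 with the higher minimum and 108 in lhb_1 nuclei, and below them from 221 to 68 and 31. Mothers above virgin males went from 146 to 55 and 31, and below from 165 to 73 and 24. Of cluster 1, the LHb4 nuclei made up 46.2%, 38.5% and 52.8%. Over the alternatives, 228 of 267 values of named genes against other neurons, 159 of 175 against LHb2 and 117 of 128 against cluster 4 moved by less than their SD over the 3 libraries. These libraries are 3 different groups, so that SD is not a spread of replicates. Between libraries 76 of 94 values stayed within a fixed limit on the change in fold, which is not a counting interval. None of these values of named genes turned its direction. The balance of higher and lower counts did turn under some settings. Examples are other neurons with no minimum or 3 UMIs added, and mothers against virgin males without the Ttr-rich nuclei. In mothers, 3 UMIs in the LHb4 nuclei equal 18.0 CPM, so scarce receptors and immediate early genes are at the limit of detection there.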
